A study of Mus musculus with 27 samples.

Results

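Haematopoietic stem and progenitor cells (HSPCs) from the bone marrow (BM) of mice 1 week old were compared with HSPCs from perinatal marrow by bulk RNA sequencing. Both groups came from C57BL/6 mice and are named here as in the labels, 1w BM and Perinatal BM, with 3 libraries each. No genotype beyond the strain and no treatment is named for either group. The labels do not state the perinatal day, the markers by which the cells were sorted, the animals' sex or any pooling of animals. The 6 libraries belong to a series of 27 libraries in 9 groups of 3. That series also holds HSPCs from fetal liver (FL) at E12.5 and E16.5, from a source labelled E12.5 PL, and from BM at 3, 4, 6 and 8 weeks. The genes described are those with at least 1 FPKM in at least 3 of the 6 libraries, which gave 11447 of 24418 entries. FPKM counts fragments per kilobase of transcript, scaled to the fragments in the library. At the edge of that rule, the third-highest of the 6 values was 1.0001 FPKM for AA465934 and 1.0025 FPKM for Kcng2, which are inside, and 0.9975 FPKM for Phlda2, which is outside.

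Around birth, blood formation moves from the fetal liver to the bone marrow. Fetal and neonatal stem cells divide often and carry a fetal gene programme built around Lin28b, a protein that blocks maturation of let-7 microRNAs, and its targets Hmga2 and the Igf2bp RNA-binding proteins. In the weeks after birth that programme is lost and progenitors gain adult features, among them expression of Dntt, the terminal transferase that adds untemplated nucleotides during antigen receptor assembly. Neonatal marrow is also where granulocyte production becomes established, and mast cells, tissue-resident cells that store proteases and histamine, share the receptor Kit with HSPCs.

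Markers of HSPCs were present in all 6 libraries. Kit, Ly6a, Cd34, Flt3, Cd48, Slamf1 and Ptprc each had at least 1 FPKM in every library, and their summed level was 811 to 929 FPKM in Perinatal BM and 679 to 748 FPKM in 1w BM. Markers of T and NK cells (Cd3e, Cd8a, Ncr1, Klrb1c) summed to at most 1.02 FPKM in any library. The mast cell markers Cpa3, Cma1, Mcpt4, Tpsb2, Ms4a2, Fcer1a and Hdc did not follow the HSPC markers. They summed to 3101, 1421 and 3877 FPKM in Perinatal BM 1 to 3 and to 87.5, 124 and 144 FPKM in 1w BM 1 to 3. In these bulk samples, fewer cells of a type and less RNA per cell cannot be told apart. Neutrophil markers summed to 668, 440 and 131 FPKM in Perinatal BM and to 551, 503 and 844 FPKM in 1w BM, so Perinatal BM 3 was the lowest of the 6. Xist and 4 Y-linked genes were detected in all 6 libraries. Ddx3y, a Y-linked RNA helicase, read 21.4, 33.1 and 20 FPKM in Perinatal BM and 8.68, 13 and 19.1 FPKM in 1w BM.

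The total read count per library is unknown, since only FPKM were deposited. Relative depth, read from the steps between low values, was 0.771 to 1.00 in Perinatal BM and 0.763 to 1.08 in 1w BM, on a scale where the median library of the series is near 1. Across genes, which are not independent replicates, log2(FPKM + 1) correlated at r = 0.975 to 0.985 among the Perinatal BM libraries, 0.989 to 0.992 among the 1w BM libraries and 0.961 to 0.972 between the groups. The median SD of a gene on that scale was 0.149 in Perinatal BM and 0.102 in 1w BM. Principal component 1 of the 6 libraries held 55.9% of the variance and separated the groups. Component 2, with 19.6%, placed Perinatal BM 2 and Perinatal BM 3 at opposite ends, at 20.4 and -22.2.

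Of the 11447 genes, 1120 were higher and 1111 lower in 1w BM at an adjusted p under 0.05 (limma, Benjamini-Hochberg over 13350 genes). That is 19.5% called in either direction, 9.78% higher and 9.71% lower. Differences were mostly small: the median log2 difference was 0.414 among genes called higher and -0.528 among genes called lower, and 0.00504 over all 11447. Changes of 2-fold or more were more often losses than gains, with 58 genes higher (0.507%) and 180 lower (1.57%). All values of 1 group lay above all values of the other for 35.3% of the genes. Leaving out 1w BM 3 gave 665 genes higher and 735 lower, and leaving out 1w BM 1 gave 717 higher. A fit of the 6 libraries alone called 1279 genes, 533 higher and 746 lower, of which 1186 were among the 2231, or 53.2% of those reported. Folds here are on the log2(FPKM + 1) scale and understate changes of genes near 1 FPKM.

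**Figure D1:**
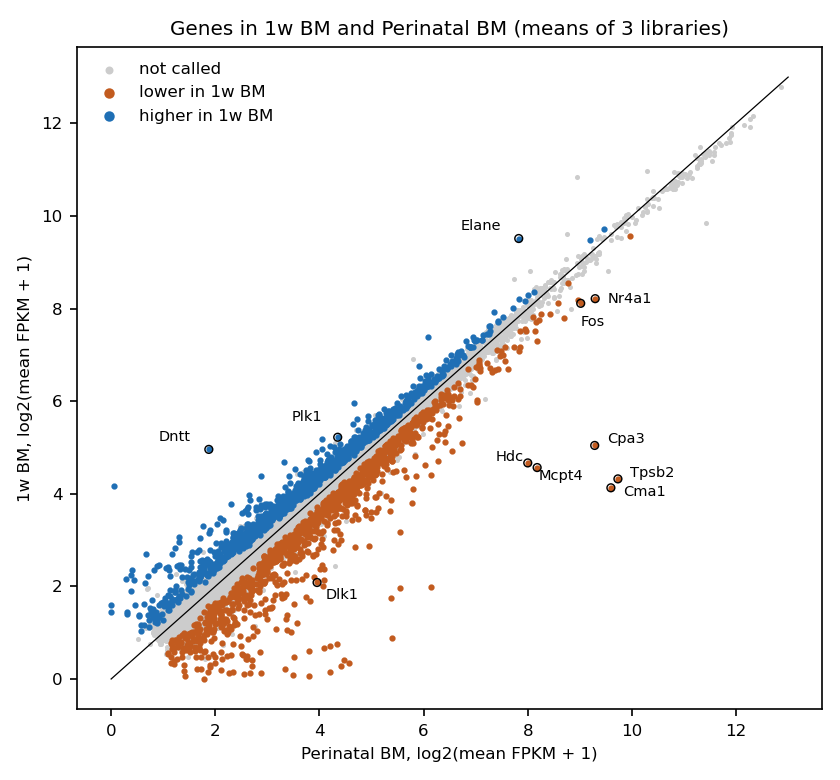
Mean expression of the 11447 genes in Perinatal BM (x axis) and 1w BM (y axis), both as log2 of the mean FPKM of 3 libraries plus 1, with genes called higher in blue and lower in orange and the line of equal level in black. Mast cell genes such as Cma1, Tpsb2 and Cpa3 lie far below the line at high perinatal level, and Dntt and Elane lie above it.

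The largest losses were in genes of mast cells and basophils. Of 28 tested genes on a list of 30, 24 were lower in 1w BM and none was higher, with a median log2 difference of -1.8. All 28 differences were below 0. The libraries of the groups did not overlap for 23 of the 28, against 35.3% of all 11447 genes. Some of the 28 passed the expression rule through the perinatal libraries alone. For those, the direction and the lack of overlap were fixed by the rule. The 2 listed genes below the expression rule were Mcpt9 and Mrgprx2, whose means were at most 0.938 FPKM. Of the 180 genes lower by 2-fold or more, 19 were on this list.

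The secretory granule proteases fell furthest. Cma1, the mast cell chymase (chr14:55941451-55944675, GRCm38, minus strand), read 793, 377 and 1148 FPKM in Perinatal BM 1 to 3 and 10.3, 19 and 20.1 FPKM in 1w BM 1 to 3. The lowest perinatal value was thus far above the highest value at 1 week, and the log2 difference was -5.38 (SE 0.46, limma adjusted p = 2.81e-08). Tpsb2, a mast cell tryptase (chr17:25366305-25369098, plus strand), read 986, 452 and 1108 FPKM and then 12.3, 24.6 and 20.2 FPKM. It fell by 5.35 on the log2 scale (SE 0.44, adjusted p = 1.13e-08). Cpa3, carboxypeptidase A3 of the same granules (chr3:20215620-20242181, minus strand), read 716, 306 and 846 FPKM and then 27.1, 32.1 and 36.8 FPKM, a log2 difference of -4.12 (SE 0.37). Perinatal BM 2 was the lowest of its group for all 3 genes and still lay over every library of 1w BM. The tryptases Tpsb2 and Tpsab1 and the chymases Mcpt1, Mcpt2 and Mcpt4 have close relatives beside them in the genome, so the division of reads among them is uncertain. Tpsab1 fell by 4.44, Mcpt2 by 4.1, Mcpt4 by 3.26 on the log2 scale, and the difference for Mcpt1 was -2.16. Mcpt8, the basophil protease, was not called and read 24.8, 13.7 and 23.2 FPKM in Perinatal BM against 14.2, 16.2 and 26.8 FPKM in 1w BM.

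**Figure D2:**
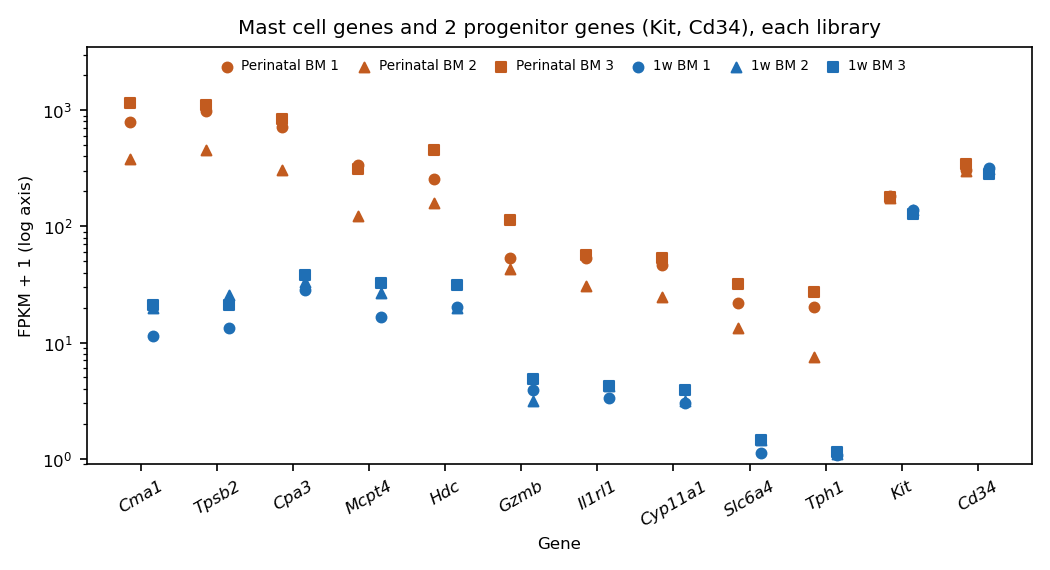
FPKM plus 1 on a log axis for 10 mast cell genes and the progenitor genes Kit and Cd34, 1 point per library (orange Perinatal BM, blue 1w BM; circle, triangle and square for replicates 1, 2 and 3). Every perinatal library lies above every 1w BM library for the 10 mast cell genes, with Perinatal BM 2 lowest in its group for each, while Kit and Cd34 lie close together.

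Genes for mast cell mediators and receptors followed the proteases. Hdc, which makes histamine, read 256, 158 and 454 FPKM in Perinatal BM and 19.1, 18.9 and 30 FPKM in 1w BM (log2 difference -3.51, SE 0.33). Tph1, the enzyme that starts serotonin synthesis, read 19.2, 6.44 and 26.4 FPKM and then 0.0738, 0.106 and 0.14 FPKM. Slc6a4, the serotonin transporter, read 20.7, 12.3 and 31 FPKM and then 0.114, 0.446 and 0.44 FPKM. Both serotonin genes were thus close to undetected at 1 week. Il1rl1, the receptor for interleukin 33, fell by 3.53 (SE 0.24), from a mean of 45.9 ± 14.3 to 2.93 ± 0.508 FPKM (SD, n = 3). Cyp11a1, a steroid side-chain cleavage enzyme also made by mast cells, fell by 3.57 and Gzmb, granzyme B, by 4.05. Alox5, which starts leukotriene synthesis, fell by 2.13, and Fcer1a, the IgE-binding chain of the high-affinity IgE receptor, by 2.24. The mast cell transcription factors fell less, Mitf by 0.98 and Gata2, which HSPCs also express, by 0.47. The 4 genes of the list that were not called were Mcpt8, Ms4a2 (log2 difference -0.5), Ltc4s (-0.2) and Srgn (-0.27).

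Among the 15 largest losses named by the rule, 4 of those not on the list were Calca, Smpx, Creb3l1 and Lilr4b. Calca, the precursor of calcitonin and its gene-related peptide, read 12.6, 4.45 and 44.2 FPKM in Perinatal BM and 0.26, 0.408 and 0 FPKM in 1w BM. Smpx, a small muscle protein, read 10.3, 7.25 and 21 FPKM and then 0, 0.129 and 0 FPKM. Creb3l1, a membrane-anchored transcription factor, fell by 3.52. Pla2g7, which breaks down platelet-activating factor and was named for its small adjusted p, fell by 3.43. Lilr4b, an inhibitory receptor, fell by 3.49, although it has a near-identical neighbour, Lilrb4a, and their reads may be shared. Perinatal BM 2 was the lowest perinatal library for 26 of the 28 listed mast cell genes and for 116 of the 180 genes lower by 2-fold or more (64.4%, against 35.9% of all 11447 genes). It was also the perinatal library with the lowest mast cell marker sum, which is made of genes from the same list and is not independent of these ranks.

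Among the FL and BM libraries, the mast cell level was highest in Perinatal BM. The median of the 28 genes, as log2(FPKM + 1), lay between 1.01 and 1.51 in the E16.5 FL libraries, 4.3 and 5.07 in Perinatal BM, 1.95 and 2.25 in 1w BM and 1.59 and 1.82 in BM at 3 weeks. Every other library of FL and BM lay below the lowest perinatal one. The 28 genes had passed the expression rule in Perinatal BM and 1w BM only, some through Perinatal BM alone. The rank of Perinatal BM is therefore not independent of that choice. With 1 perinatal library left out, 24 of the genes kept enough libraries to be tested, and 19 (without Perinatal BM 1 or Perinatal BM 3) or 20 (without Perinatal BM 2) were called lower. Without 1 library of 1w BM, 23 to 24 of 28 were.

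Promoters of listed genes were searched for AGATAA, a form of the sequence bound by GATA factors, on both strands (TTATCT on the other) in the 200 bases before the RefSeq start. It was present in 6 of 30 windows (20%) of the 24 mast cell genes with an entry, against 7.8% of all 32851 windows and 4.46% of those of the 11447 genes. AGATAA was not alone in this. The sequence TTTGAA was also in 6 of the 30 windows (20%), against 7.54% of those of the 11447 genes. TGACTCA was in 3 of the 30 (10%), against 2.5%. CCAAT was less frequent (16.7%, against 31.9%), and the other motifs searched were in none of the 30. The windows of Cpa3 (chr3:20242182-20242381, minus strand) and Fcer1a (chr1:173227230-173227429, minus strand) are shown because both hold AGATAA and both genes fell. They come from the RefSeq table for GRCm38.p6, 5′ to 3′ along the gene, with the match in capitals.
Cpa3: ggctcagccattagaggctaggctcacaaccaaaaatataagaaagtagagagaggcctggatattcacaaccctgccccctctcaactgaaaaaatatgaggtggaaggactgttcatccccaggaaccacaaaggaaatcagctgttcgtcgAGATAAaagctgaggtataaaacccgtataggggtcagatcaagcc
Fcer1a: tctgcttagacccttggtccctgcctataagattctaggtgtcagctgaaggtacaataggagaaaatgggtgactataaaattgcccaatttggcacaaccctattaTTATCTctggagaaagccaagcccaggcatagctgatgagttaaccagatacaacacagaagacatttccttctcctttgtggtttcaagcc
The window of Cma1 holds no such match. A match is a description of the letters and not evidence of binding.

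Genes of mitosis moved the other way. Of 53 tested genes, 38 were higher in 1w BM and none was lower, and the median log2 difference was 0.39. The differences were above 0 for 51 of the 53, and the libraries did not overlap for 42, against 35.3% of all 11447 genes. Each gain was modest, below 2-fold. Plk1, the kinase that drives entry into and exit from mitosis (chr7:122159439-122169873, plus strand), read 17.9, 17.7 and 22.7 FPKM in Perinatal BM and 35.4, 34.2 and 39.4 FPKM in 1w BM. Its log2 difference of 0.87 (SE 0.09, limma adjusted p = 6.25e-07) was the largest of the list. Tpx2, which activates Aurora A on the spindle, read 26.4, 23.9 and 26.8 FPKM and then 41.2, 40.6 and 39.7 FPKM (log2 difference 0.64). Hmmr, a spindle-associated protein, rose by 0.8, and Prc1, which bundles the microtubules of the central spindle, by 0.73. Ccna2, cyclin A2, read 53.3, 52.9 and 57.7 FPKM and then 77.2, 76.1 and 83.2 FPKM, a tight pair of groups with no overlap. Cdk1, the kinase that starts mitosis, rose by 0.29, but not past the threshold without 1w BM 3 (adjusted p = 0.0709). Mki67, the source of the Ki-67 antigen, was not called (log2 difference 0.47, adjusted p = 0.0709), with 44.5, 53.9 and 42.9 FPKM against 66.6, 64.7 and 64.1 FPKM. Pttg1, securin, had a difference of -0.38 and was not called.

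The abundant tubulins Tubb5 and Tuba1b were also called higher, by 0.26 and 0.29 on the log2 scale. Tubb5 was no longer called without Perinatal BM 1 or 2 or without 1w BM 1 or 3 (adjusted p from 0.0586 to 0.113). Tuba1b was not called without any 1 of the 6 libraries (0.0517 to 0.143). The median mitosis level was 4.63 to 4.81 in the Perinatal BM libraries, 5.05 to 5.1 in 1w BM, 5.07 to 5.2 in E16.5 FL and 4.95 to 5.07 at 3 weeks, as log2(FPKM + 1). All 3 perinatal values were thus below those of the FL group before them and the BM groups at 1 and 3 weeks, but the 8-week libraries, at 4.68 to 5.05, overlapped them. Adding the Y-linked level as a covariate left 30 mitosis genes called, and leaving out 1 library left 26 to 37.

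Promoters of the mitosis genes were searched in the same way for CCAAT, the sequence bound by NF-Y (ATTGG on the other strand), and for TTTGAA, the core of the cell cycle homology region (TTCAAA on the other strand). CCAAT was present in 35 of 47 windows of 44 genes (74.5%), against 29.3% of all windows and 31.9% of those of the 11447 genes. TTTGAA was present in 21 of the 47 (44.7%), against 4108 of all 32851 windows and 7.54% of those of the 11447 genes. Of the DNA replication genes, 56.2% of windows held CCAAT and 10.4% TTTGAA. The windows shown are those of Plk1 (chr7:122159235-122159434, plus strand), which holds CCAAT alone, and of Kif22 (chr7:127042421-127042620, minus strand) and Espl1 (chr15:102296093-102296292, plus strand), which hold both, with matches in capitals.
Plk1: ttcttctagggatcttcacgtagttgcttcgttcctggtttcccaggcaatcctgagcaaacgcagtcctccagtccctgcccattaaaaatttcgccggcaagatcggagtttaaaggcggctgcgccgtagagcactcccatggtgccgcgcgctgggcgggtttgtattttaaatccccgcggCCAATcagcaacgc
Kif22: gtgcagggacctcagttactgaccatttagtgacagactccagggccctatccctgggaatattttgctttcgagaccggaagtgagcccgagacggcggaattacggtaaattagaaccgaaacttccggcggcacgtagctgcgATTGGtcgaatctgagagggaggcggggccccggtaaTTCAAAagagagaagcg
Espl1: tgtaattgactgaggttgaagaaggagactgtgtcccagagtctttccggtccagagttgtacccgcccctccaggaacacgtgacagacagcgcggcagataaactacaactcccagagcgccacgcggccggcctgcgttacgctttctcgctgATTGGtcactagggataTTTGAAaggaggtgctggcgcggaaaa
Kif22, a chromosome-bound kinesin, rose by 0.56 on the log2 scale, and Espl1, the separase that cleaves cohesin, by 0.53.

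DNA replication genes shared the direction with smaller steps. Of 51 tested, 20 were higher and none was lower, with a median log2 difference of 0.18. Tyms, thymidylate synthase, read 16.7, 15.4 and 17.7 FPKM in Perinatal BM and 22.9, 23.4 and 24.9 FPKM in 1w BM (log2 difference 0.49, SE 0.08). Cdc6, which loads the MCM helicase, and Pola1, the catalytic subunit of polymerase alpha, both rose by 0.5, and Pold2, of polymerase delta, by 0.48. The helicase subunit Mcm6 was not called (0.15), nor was the sliding clamp Pcna (0.19, adjusted p = 0.0897). The 6-library fit and the fit with the Y-linked covariate each called 13 of these genes. Ezh2, the methyltransferase of Polycomb complex 2, also rose, by 0.54 (SE 0.08), from 43.5, 43.2 and 52.4 FPKM to 68.3, 66.5 and 68.5 FPKM. Its partner Eed was called higher by 0.21, but not without Perinatal BM 2 (adjusted p = 0.0539), Perinatal BM 3 (0.0568) or 1w BM 3 (0.108).

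Histone genes made up much of the largest gains, a set chosen after its values were seen. Of 67 histone genes in the table, 50 were tested, 42 of these on chromosome 13. In 1w BM, 28 were higher and none lower, with a median log2 difference of 1.17. The count of 28 was 22 in the fit of the 6 libraries alone and 19 to 28 with 1 library left out. The tested histone genes accounted for 27 of the 58 genes higher by 2-fold or more. Levels were low: Hist1h3i (chr13:21782960-21783370) read 0.395, 0 and 1.35 FPKM in Perinatal BM and 8.19, 3.07 and 5.16 FPKM in 1w BM. Hist1h1a, a linker histone, read 2.06, 3.05 and 4.72 FPKM and then 12.6, 8.48 and 9.07 FPKM, a log2 difference of 1.4 (SE 0.25, adjusted p = 0.000434). Hist1h3c rose by 1.39, Hist1h3e by 1.53, Hist1h2ak by 2.0, Hist1h2bb by 1.86 and Hist1h1d by 1.44. Replication-dependent histone genes are near-identical copies, and their values as single genes are uncertain.

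**Figure D3:**
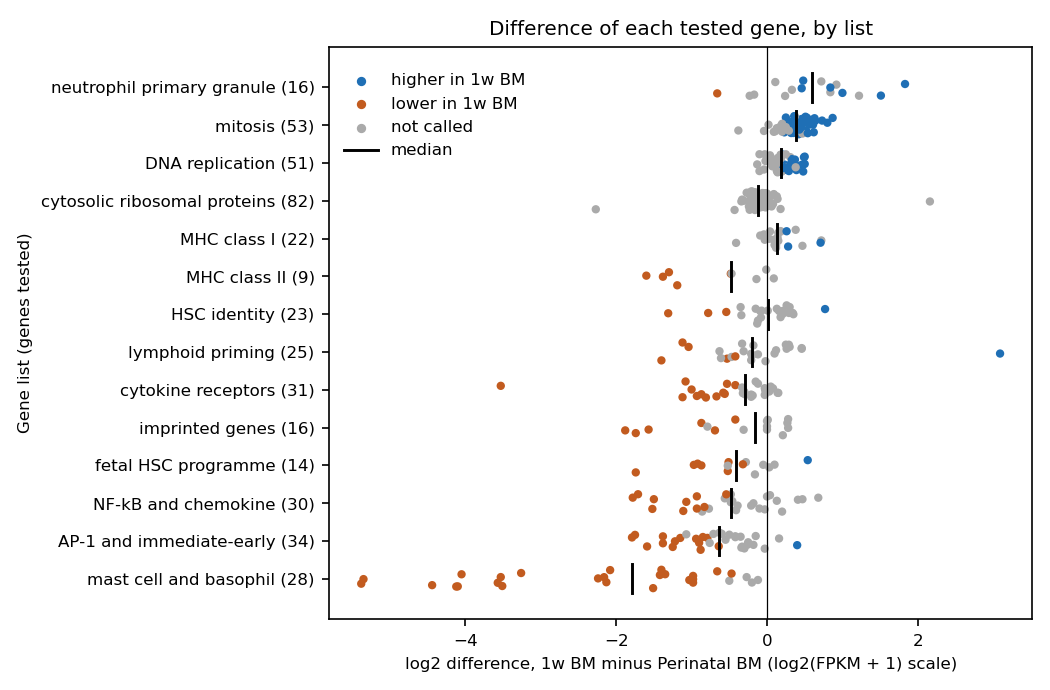
Log2 difference (1w BM minus Perinatal BM, on the log2(FPKM + 1) scale) of each tested gene in 14 lists, with the number tested in brackets, genes called higher in blue and lower in orange, and the median as a black bar. Medians run from -1.8 for the mast cell list to 0.6 for neutrophil primary granule genes, and most mitosis genes lie to the right of 0.

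Dntt had the largest gain among genes named by the rule. It read 1.86, 3.18 and 2.95 FPKM in Perinatal BM and 32.8, 32.9 and 24.4 FPKM in 1w BM, with no overlap, and rose by 3.09 on the log2 scale (SE 0.19, adjusted p = 1.99e-10; chr19:41029275-41059525, plus strand). Its mean was 0.377 FPKM in E16.5 FL, 95.5 FPKM at 3 weeks and 145 FPKM at 8 weeks. Of 25 tested genes of the lymphoid priming list, 5 were lower and Dntt alone was called higher, with a median log2 difference of -0.2. The number called higher was 3 without Perinatal BM 3 and 6 with array quality weights. Il7r, the receptor for interleukin 7, read 7.28, 5.71 and 11.3 FPKM and then 3.82, 2.39 and 3.06 FPKM (log2 difference -1.12, SE 0.21, adjusted p = 0.000908). Ccr9, a thymus-homing chemokine receptor, read 5.03, 4.39 and 13 FPKM and then 2.44, 2.02 and 1.37 FPKM, and fell by 1.4. Btla, an inhibitory receptor of lymphoid cells, fell by 1.04. Flt3, a cytokine receptor of early multipotent and lymphoid progenitors, read 172, 180 and 195 FPKM and then 136, 132 and 110 FPKM, a log2 difference of -0.53. Flt3 was not called without 1w BM 3 (adjusted p = 0.0794). Rag1 and Rag2, the recombinase genes, were not called, and Rag1 read 0.867, 0.761 and 5.99 FPKM in Perinatal BM against 3.71, 2.49 and 2.63 FPKM. Perinatal BM 3 was the highest perinatal library for 19 of the 25 genes. Without 1w BM 3, 3 genes of the list were called lower.

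Of 16 primary granule genes, which neutrophil progenitors make first, 6 were higher and 1 was lower, with a median log2 difference of 0.6. Elane, neutrophil elastase, read 278, 309 and 91.1 FPKM in Perinatal BM and 583, 623 and 983 FPKM in 1w BM. The groups did not overlap, and the log2 difference was 1.83 (SE 0.55, adjusted p = 0.0237). The call rested on the extreme libraries, since it was lost without Perinatal BM 3 (log2 difference 1.27, adjusted p = 0.127) or 1w BM 3 (1.59, adjusted p = 0.103). Fcnb, ficolin B, read 12, 11.3 and 3.39 FPKM and then 21.6, 23.4 and 28.9 FPKM, and rose by 1.51 (SE 0.31, adjusted p = 0.002; 0.0768 with a pseudocount of 0.1). Prss57, another serine protease, rose by 1.0 and Nkg7, a granule membrane protein, by 0.84. Mpo, myeloperoxidase, was not called (log2 difference 0.72, adjusted p = 0.109), although its libraries did not overlap, at 1367, 1594 and 789 FPKM against 1707, 1784 and 2545 FPKM. Prtn3, Ctsg and Ms4a3 were not called either (0.84, 0.92 and 1.22). Without 1w BM 3, 3 genes of the list were called higher.

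Of 16 later granule genes, 2 were higher and 1 was lower, a share near the 19.5% called over all 11447 genes. With 1 library left out, 4 were higher without Perinatal BM 1, and 4 were lower without Perinatal BM 3. None was called lower without Perinatal BM 1, Perinatal BM 2, 1w BM 1 or 1w BM 2. Cebpe, the factor that controls late granule genes, read 5.99, 7.08 and 2.94 FPKM and then 11.5, 11.1 and 18.3 FPKM, a rise of 1.24 (SE 0.3). Wfdc21, a secreted whey acidic protein family member, rose by 1.67. S100a8, which encodes a calcium-binding protein of mature neutrophils, was not called and read 440, 257 and 90.5 FPKM against 407, 339 and 608 FPKM. Lcn2, lipocalin 2, was called lower by 1.15 (adjusted p = 0.0499). With 1 library left out, that call held without Perinatal BM 3 only (0.00182), with adjusted p from 0.0623 to 0.234 for the other 5. Hk3, a myeloid hexokinase, rose by 1.6, from 7.2, 9.29 and 2.69 FPKM to 16.4, 17.9 and 25.5 FPKM. Ly6c2, a surface antigen of monocytes and their progenitors, was called higher by 1.46, and not without Perinatal BM 3, 1w BM 1, 1w BM 2 or 1w BM 3 (adjusted p from 0.0692 to 0.255). Perinatal BM 3 was the lowest of its group for 12 of the 16 primary granule genes and 15 of the 16 later ones, and 1w BM 3 was the highest of its group for 16 and 14. Those libraries also had the lowest and the highest neutrophil marker sum. That sum includes later granule genes such as Camp, so it is not independent of these ranks, and its part in the result was not tested. Of 8 eosinophil genes, 3 were lower and 1 higher. Prg2, the major basic protein, read 160, 131 and 26.5 FPKM and then 16.2, 33.7 and 50.5 FPKM, with overlap. Its difference of -1.42 had an adjusted p of 0.0397 and, with 1 library left out, was called without Perinatal BM 3 or 1w BM 3 only. The count of eosinophil genes called lower was 6 without Perinatal BM 3, 2 without 1w BM 3, 0 without Perinatal BM 1 and 1 without any of the other 3 libraries.

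**Figure D4:**
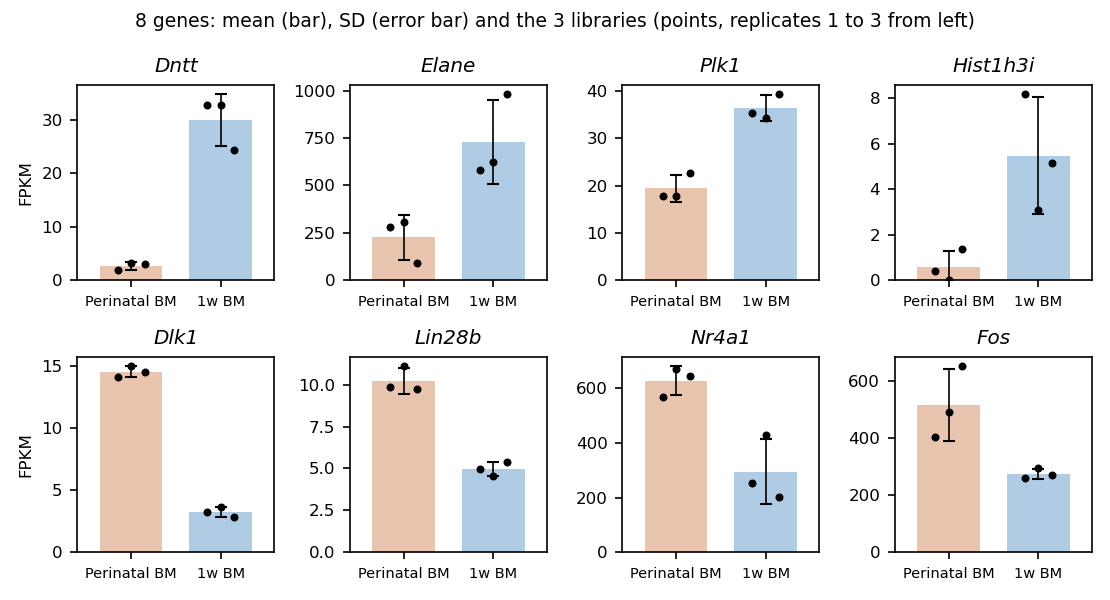
FPKM of 8 genes in Perinatal BM and 1w BM, with the mean as a bar from 0, the SD as an error bar and the 3 libraries as points. Dntt, Elane, Plk1 and Hist1h3i (top row) are higher and Dlk1, Lin28b, Nr4a1 and Fos (bottom row) lower in 1w BM, and no pair of groups overlaps.

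The fetal programme, already lower in Perinatal BM than in E16.5 FL, fell further. Its median level, as log2(FPKM + 1), was 5.67 to 5.87 in E16.5 FL, 4.9 to 5.31 in Perinatal BM and 4.37 to 4.75 in 1w BM. Of 14 tested genes of the list, 7 were lower and 1, Ezh2, was higher, with a median log2 difference of -0.42. Lin28b read 9.86, 11.1 and 9.71 FPKM in Perinatal BM and 4.94, 4.54 and 5.38 FPKM in 1w BM, which is a fall of 0.92 (SE 0.16, adjusted p = 0.000413). Igf2bp2, an RNA-binding protein that is a let-7 target, read 19, 21.1 and 18.6 FPKM and then 9.76, 9.96 and 8.74 FPKM (log2 difference -0.97, SE 0.11). The libraries of a group agreed closely for both genes, and the groups were well apart. Hmga2, a chromatin protein, fell by 0.51, from 109, 120 and 117 FPKM to 84.6, 84 and 74.3 FPKM, though not past the threshold without Perinatal BM 2 (adjusted p = 0.0531) or 1w BM 3 (0.0742). Arid3a, a transcription factor of fetal lymphoid progenitors, fell by 0.52 (adjusted p = 0.0858 with the Y-linked covariate). Hmga1 was not called (-0.28, adjusted p = 0.0897). At 1 week every library was still above the 3-week mean for Lin28b (0.801 FPKM), Igf2bp2 (1.65 FPKM) and Hmga2 (34.2 FPKM).

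Imprinted genes, expressed from 1 parental copy, shared the tested genes H19 and Igf2 with that list. Of 16 tested, 6 were lower and none was higher. Dlk1, a membrane-bound Notch ligand relative from the imprinted cluster on chromosome 12 (chr12:109452823-109463336, plus strand), read 14.1, 15 and 14.5 FPKM in Perinatal BM and 3.28, 3.62 and 2.83 FPKM in 1w BM. It fell by 1.88 (SE 0.12, adjusted p = 2.34e-10), with a mean of 25.1 FPKM in E16.5 FL and 0.504 FPKM at 3 weeks. Meg3, the maternally expressed long RNA of the same cluster (chr12:109541001-109571726, plus strand), read 5.92, 7.08 and 3.84 FPKM and then 1.12, 1.47 and 0.967 FPKM, a fall of 1.57. H19, a maternally expressed long RNA on chromosome 7, read 7.16, 7.9 and 32.1 FPKM and then 3.53, 2.67 and 2.87 FPKM, so Perinatal BM 3 stood apart, and it fell by 1.74 (SE 0.3). Its neighbour Igf2, a fetal growth factor, fell by 0.87 from levels of at most 2.1 FPKM. Rian was called lower by 0.69, but not without 1w BM 1 (adjusted p = 0.0713). Grb10 (0.28), Cdkn1c (-0.31) and Gnas (0.0) were among the 10 not called.

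Immediate-early genes respond within minutes to growth factors and stress. Of 34 tested, 14 were lower and 1 was higher, with a median log2 difference of -0.63 and 32 of 34 differences below 0. Nr4a1, a nuclear receptor (chr15:101254269-101274795, plus strand), read 567, 670 and 645 FPKM in Perinatal BM and 254, 430 and 203 FPKM in 1w BM. The groups did not overlap, and it fell by 1.15 (SE 0.28, adjusted p = 0.00569). Nr4a2 read 42.9, 41.7 and 34.7 FPKM and then 10, 16.8 and 7.29 FPKM, a fall of 1.79. Klf6, a zinc finger factor, fell by 1.22, Socs3, a feedback inhibitor of cytokine signalling, by 1.25, and Rgs2, a G protein regulator, by 0.94. Fos read 406, 493 and 654 FPKM and then 261, 296 and 272 FPKM and was called lower by 0.88 (adjusted p = 0.0428). That call held without Perinatal BM 1 only, with adjusted p from 0.07 to 0.15 without any 1 of the other 5 libraries. Jun (-0.03) and Egr1 (0.16) were not called. Myc was the gene that was higher, by 0.4, and lost its call without Perinatal BM 2, Perinatal BM 3, 1w BM 1 or 1w BM 3 (adjusted p from 0.0878 to 0.178).

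The count of 14 was sensitive to single libraries. It was 9 without Perinatal BM 2, 8 without Perinatal BM 3, 7 without 1w BM 1 and 6 without 1w BM 3. 1w BM 2 was the highest of its group for 32 of the 34 genes, and without it 16 were called. The median level of the list was 6.37 to 6.71 in Perinatal BM, 6.16 to 6.42 in 1w BM and 7.27 to 7.65 at 3 weeks, so the medians of 1w BM and Perinatal BM overlapped.

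**Figure D5:**
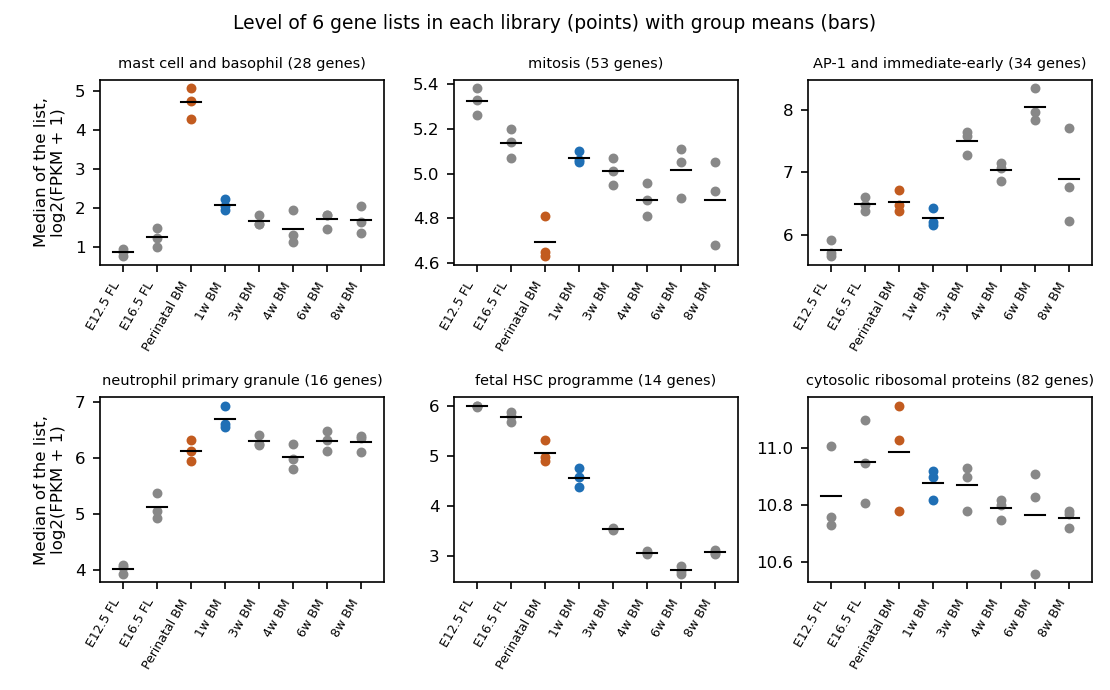
Median log2(FPKM + 1) of 6 gene lists in each library (points; Perinatal BM orange, 1w BM blue) with the mean of the group as a bar, in the 8 groups of FL and BM and with a separate y axis for each list. The mast cell median is 4.3 to 5.07 in Perinatal BM alone, the group mean of the mitosis medians is lowest there, and the fetal programme steps down from E12.5 FL to BM at 3 weeks.

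NF-kB targets and chemokines were lower for 10 of 30 tested genes and higher for none, with a median log2 difference of -0.48. Il6 read 5.22, 3.83 and 4.77 FPKM in Perinatal BM and 0.537, 0.439 and 0.943 FPKM in 1w BM, a fall of 1.78 (SE 0.17, adjusted p = 1.32e-07). Ccl3, an inflammatory chemokine, read 76.6, 82.9 and 89.7 FPKM and then 34, 41.6 and 38.8 FPKM, and fell by 1.11. Ccl4 fell by 1.52 and Ptgs2, the inducible prostaglandin synthase, by 1.5. Nfkbiz fell by 1.07. Tnfaip3, a feedback inhibitor of NF-kB, fell by 1.71 on the log2 scale, with no overlap between the groups. Nfkbia (-0.56) and Nfkb1 (0.0) were not called. Mast cells also make Il6, Ccl3, Ccl4 and Ptgs2. The mast cell marker sums moved in the same direction, and their part in these differences was not tested. Perinatal BM 2, with the lowest mast cell sum of its group, was the lowest perinatal library for 6 of the 30 genes (20%) and the highest for 18 (60%). Over all 11447 genes those shares were 35.9% and 37.5%. They cover the whole list and were not taken for the genes that mast cells also make.

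Receptors for cytokines were lower for 12 of 31 tested and higher for none, with a median log2 difference of -0.29. Kit, the receptor for stem cell factor, read 183, 176 and 178 FPKM in Perinatal BM and 138, 136 and 128 FPKM in 1w BM. It fell by 0.42 (SE 0.1, adjusted p = 0.00426), a small step between 2 tight groups. Tgfbr1 and Tgfbr2, the type I and type II receptors for TGF-beta, read 23.2, 22.7 and 23 FPKM against 14.9, 14.1 and 13.2 FPKM, and 26.5, 24.8 and 26.9 FPKM against 17.3, 19.7 and 15.3 FPKM. They fell by 0.67 and 0.56. Il1r1, a receptor for interleukin 1, fell by 0.81, and Il10ra, a receptor for interleukin 10, by 1.0. Lifr fell by 1.08 and Il18r1 by 0.93 from levels of at most 2.56 FPKM. Csf1r, Csf3r and Epor were not called (-0.29, 0.08 and 0.05). Kit and Il1rl1 are also expressed by mast cells, and the part of the mast cell marker sums in their fall was not tested. Perinatal BM 2 was the lowest perinatal library for 11 of the 31 genes (35.5%) and the highest for 14 (45.2%), against 35.9% and 37.5% of all 11447 genes. These shares cover the whole list, and Perinatal BM 2 was the lowest for both Kit and Il1rl1.

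Of 23 tested genes on a list of stem cell markers, 1 was higher (4.35%) and 3 were lower (13%), against 9.78% and 9.71% of all 11447 genes. The median log2 difference was 0.01, with 12 differences above 0 and 11 below. Slamf1, the CD150 antigen of stem cells, read 1.43, 1.63 and 1.05 FPKM in Perinatal BM and 2.82, 3.63 and 2.64 FPKM in 1w BM and rose by 0.77 (SE 0.15). Ly6a, which encodes Sca-1, read 36.6, 14.9 and 50.7 FPKM and then 11.3, 15.7 and 8.77 FPKM. Its log2 difference was -1.31 (adjusted p = 0.00265, and 0.0648 in the 6-library fit), and Perinatal BM 2 lay within the range of 1w BM. Robo4, an adhesion receptor, was lower by 0.78, but not without 1w BM 3 (adjusted p = 0.0748), and Selp, P-selectin, by 0.54 (adjusted p = 0.06 in the 6-library fit). That fit called 1 gene of the list lower. Procr (0.35), Mecom (0.13), Hlf (0.21) and Cd34 (-0.08) were not called. Perinatal BM 3 was the lowest of its group for 17 of the 23 genes and 1w BM 3 for 20.

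Of 44 blood transcription factors, 9 were higher (20.5%) and 6 lower (13.6%), against 9.78% and 9.71% of all 11447 genes. Id2, an inhibitor of E proteins, had the largest fall, from 43.8, 38.5 and 80 FPKM to 11.9, 13 and 14.1 FPKM (log2 difference -1.91, SE 0.22, adjusted p = 3.73e-06). Cebpb, a factor of emergency granulopoiesis and mast cells, fell by 1.06. Nfe2, a factor of megakaryocytes and red cells, read 61.1, 64.4 and 54.5 FPKM and then 94.8, 87.9 and 87.8 FPKM, a rise of 0.58. Erg, a factor of stem cell maintenance, was called higher by 0.43, but not without 1w BM 1 (adjusted p = 0.0572). Lmo2, an adaptor of the GATA and SCL complex, was called higher by 0.29, but not without any 1 of the 6 libraries (adjusted p from 0.055 to 0.127). Counts of higher factors were 3 without 1w BM 1, 4 without 1w BM 3 and 5 without any of the other 4 libraries. Spi1, Cebpa and Runx1 were not called (-0.1, 0.09 and -0.15).

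Of 9 MHC class II genes, which present antigen to helper T cells, 5 were lower. H2-Aa read 22.6, 31.4 and 110 FPKM in Perinatal BM and 15.3, 12.2 and 21.1 FPKM in 1w BM, so Perinatal BM 3 stood apart, as it did for 8 of the 9 genes, in which it was the highest of its group. No class II gene was called without Perinatal BM 3 or without 1w BM 2, and 1 was called without 1w BM 1. The limma fit of the 6 libraries called none of the 9, and 5 had an unadjusted p under 0.05 in it. Of 22 class I genes, 3 were higher (13.6%) and none was lower, against 9.78% and 9.71% of all 11447 genes. With the Y-linked covariate 1 was higher and 1 lower. No test compared the classes. Nlrc5, the activator of class I transcription, read 2.09, 1.9 and 2.86 FPKM and then 4.02, 4.78 and 4.26 FPKM (log2 difference 0.71, SE 0.12). H2-K1 read 255, 255 and 256 FPKM and then 285, 365 and 287 FPKM, a log2 difference of 0.28 that was not called without 1w BM 2 (adjusted p = 0.0916). Class I genes have near-identical relatives, so values of single H2 genes are uncertain.

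Stress and cell cycle arrest genes showed no common direction. Trp53 rose by 0.44, from 123, 108 and 139 FPKM to 168, 161 and 172 FPKM. Of 26 p53 targets, 3 were higher (11.5%) and 5 lower (19.2%), against 9.78% and 9.71% of all 11447 genes. Pmaip1, a pro-apoptotic BCL2 relative, fell by 1.54, Trp53inp1 by 0.92 and Plk2 by 1.34, and Tigar, a regulator of glycolysis, rose by 0.65. The count of higher targets was 1 without Perinatal BM 1, 1w BM 1 or 1w BM 3. Cdkn1a, the p21 inhibitor, read 82.9, 90.8 and 87.3 FPKM and then 33.5, 63.7 and 33.1 FPKM and was lower by 1.05. Its call was lost without Perinatal BM 2, 1w BM 1 or 1w BM 3 (adjusted p from 0.0625 to 0.105). Btg1, an antiproliferative factor, fell by 0.93. Cyclins D1 to D3 (Ccnd1, Ccnd2, Ccnd3) were not called (-0.12, 0.15 and 0.06).

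None of 82 cytosolic ribosomal protein genes was called by limma, and 2 had an unadjusted p under 0.05. With array quality weights 17 were called lower. In the reported fit, 71 of the 82 differences were below 0, with a median of -0.12. Perinatal BM 2 was the lowest of its group for 80 of the 82 and 1w BM 1 for 74. Rps27 and Rps27rt, near-identical copies whose reads can be split differently between libraries, had uncalled differences of -2.27 and 2.16. Of 53 oxidative phosphorylation genes, 3 were higher and 1 lower, and of 28 glycolysis genes, 4 were higher and 2 lower, against 9.78% and 9.71% of all 11447 genes. With 1 library left out, 0 to 4 and 2 to 5 were higher in those lists, with 0 of the former without Perinatal BM 2 or 1w BM 3 and 1 without Perinatal BM 1, 1w BM 1 or 1w BM 2, and 2 of the latter without 1w BM 2. Among them Eno2 fell by 1.75 (5.6, 3.6 and 7.64 FPKM against 0.917, 1.03 and 0.766 FPKM) and Tpi1 rose by 0.3.

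Other genes that the naming rule picked belonged to no list. Zscan22, a zinc finger factor, read 1.61, 1.98 and 2.05 FPKM and then 5.98, 4.28 and 5.78 FPKM. Gemin4, of the complex that assembles spliceosomal particles, read 5.16, 4.19 and 4.73 FPKM and then 11.4, 10.7 and 11 FPKM. They rose by 1.13 and 1.08. Cebpg, a bZIP factor, rose by 0.75 and Pcbp1, an RNA-binding protein, by 0.37. Among abundant genes called lower, Rbm3, a cold-inducible RNA-binding protein, read 1063, 958 and 970 FPKM and then 729, 745 and 800 FPKM. Its log2 difference was -0.39, and the call was lost without Perinatal BM 1, 1w BM 1 or 1w BM 2 (adjusted p from 0.0505 to 0.0748). Hnrnpu was higher by 0.24, and not without 1w BM 3 (adjusted p = 0.0864).

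To see the same genes in other groups, they were read in BM at 3 weeks against E16.5 FL. The 2 contrasts share no group. Both take the spread of a gene from all 27 libraries, so their calls are not independent. Of the 1120 genes higher in 1w BM, 338 (30.2%) were higher at 3 weeks and 48 (4.29%) lower. The count of 338 was 204 without 1w BM 3. Of the 1111 genes lower in 1w BM, 330 (29.7%) were lower at 3 weeks and 125 (11.3%) higher. Over all 11447 genes, 14.8% were higher and 13.4% lower. Among the 180 genes lower by 2-fold or more, 42 (23.3%) were lower and 27 (15%) higher at 3 weeks. Dntt and Dlk1 were examples of the shared direction, with E16.5 FL and 3-week means given above. Cma1, with means of 5.35 FPKM in E16.5 FL and 1.22 FPKM at 3 weeks, was low at both ends. Plk1, at 36.2 and 31.2 FPKM, was at both ages near its level in 1w BM. Nr4a1 was higher at 3 weeks (943 FPKM) than in E16.5 FL (422 FPKM).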

How the data were processed

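Total RNA of HSPCs was sequenced in 27 libraries. Trim Galore, FastQC, STAR 2.7, HTSeq 0.6.1p1 and the GRCm38 build appear in the submitters' processing notes. Values are FPKM as deposited by the authors. The labels name neither the tool and annotation behind them nor any scaling, and depth is unknown, so the counting error of low values is unknown too.

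The FPKM were put on a log2(FPKM + 1) scale. Genes at 1 FPKM or more in at least 3 of the 27 libraries (13350) were fitted with limma 3.58.1 in R 4.3.3 (lmFit, eBayes with trend, a mean for each of 9 groups, 18 residual degrees of freedom). The contrast 1w BM minus Perinatal BM was adjusted over all of them at a threshold of 0.05. The test was checked on simulated data with the same spread of a gene in all groups. That check does not cover groups of unlike spread. No label says that replicates are separate animals, so the spread may be technical.

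The genes and the 40 lists were chosen with earlier results of these data known, and no list was given a test. Of 1279 listed names, 1269 were matched. Named genes were, in each direction, the 15 with the largest difference, the 6 with the smallest adjusted p and the 6 most abundant, among those called with a mean of at least 5 FPKM in the higher group and no overlap. Up to 6 per list with the smallest adjusted p were added, and other members to account for a list. Not all genes that the rule picks are described. Predicted genes, pseudogenes, mitochondrial genes and 27 date-like entries were not named. Gene positions are from GENCODE M21. Motifs were searched in Python 3.11.15.

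Results were also computed with median-of-ratios scaling, array quality weights, a replicate block or a Y-linked covariate, in smaller fits, at a pseudocount of 0.1, unfiltered or at 5 FPKM and above, and without each library in turn.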

Additional observations from a re-analysis of the deposited data

How the results depend on the processing

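The 1120 genes called higher and 1111 called lower became 533 and 746 in the fit of only the 6 libraries, and 1977 and 1933 with array quality weights. Leaving out 1 of the 6 libraries gave 665 to 1182 genes higher and 735 to 1094 lower. The lowest counts in both directions were those without 1w BM 3 (665 and 735). Of the genes called higher, 338 were also higher in BM at 3 weeks against E16.5 FL. That count was 216 with the Y-linked covariate, 646 with quality weights, and 204 (without 1w BM 3) to 310 with 1 library left out. The matching count of 330 genes lower in both became 603 with quality weights and 220 to 324 with 1 library left out. The cause of these shifts was not tested. With the replicate block, 1086 genes were higher and 1093 lower. Same-numbered libraries did not deviate together, with residual correlations of -0.114, 0.0199 and -0.0601, so the numbers were not taken as pairs. Of 209 named genes that were called, 150 were still called in the 6-library fit, 155 with the Y-linked covariate and 154 to 170 with 1 library left out, and none of them reversed in any alternative run. Uty, a Y-linked gene that was not called (-0.12), had a log2 difference of 0.61 with the Y-linked covariate. That covariate is built from Uty itself and other Y-linked genes, so this value is circular. Depth is unknown, so differences near 1 FPKM carry a counting error that cannot be given.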

Other observations

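Interferon response genes gave 1 call higher and 2 lower of 47, but Perinatal BM 3 was the highest perinatal library for 43 of the 47. Irf7, a factor of the interferon response, read 12.1, 11.7 and 31.4 FPKM in Perinatal BM and 6.86, 7.46 and 6.85 FPKM in 1w BM, and was called lower, with a log2 difference of -1.12 (limma adjusted p = 0.057 in the fit of the 6 libraries alone). The count of 2 lower was 6 without Perinatal BM 1, 5 without Perinatal BM 2 and 1 without Perinatal BM 3, 1w BM 1 or 1w BM 3. Ifi47, an interferon-induced GTPase, ran against it and rose by 0.94 on the log2 scale, to 29.6, 29.4 and 31.6 FPKM in 1w BM.

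Itgb3, the integrin beta 3 chain, read 11.1, 7.84 and 6.74 FPKM in Perinatal BM and 2.71, 2.51 and 2.53 FPKM in 1w BM, a fall of 1.39, and Gp1ba, a receptor for von Willebrand factor, fell by 0.78. Both are on a list of 24 megakaryocyte and platelet genes, of which 7 were lower and 3 higher. The number higher was 1 without Perinatal BM 2, Perinatal BM 3 or 1w BM 3. Itgb3 is also expressed by mast cells, whose marker sums moved with it, and their part in its fall was not tested. Of 23 red cell genes, 3 were higher (13%) and 1 lower (4.35%), against 9.78% and 9.71% of all 11447 genes. Only 1 was higher without Perinatal BM 2, Perinatal BM 3 or 1w BM 2. Hemgn, a nuclear factor of blood progenitors, read 5.87, 4.82 and 5.21 FPKM and then 8.85, 8.82 and 8.81 FPKM.

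Among 35 adhesion genes, 5 were higher (14.3%) and 8 lower (22.9%), against 9.78% and 9.71% of all 11447 genes. The 8 lower became 4 without Perinatal BM 1 and 5 without 1w BM 3. Icam2 rose by 0.69 and Alcam by 0.63, and Itgb7, an integrin of lymphoid and mast cell progenitors, fell by 0.68. Slc40a1, the iron exporter of macrophages, read 1.25, 1.74 and 0.612 FPKM and then 3.77, 2.54 and 4.63 FPKM, a rise of 1.09. Vcam1, another macrophage gene, read 0.958, 0.399 and 0.275 FPKM and then 2.29, 1.15 and 2.73 FPKM. The complement genes C1qa, C1qb and C1qc, below the expression rule and not tested, had means of 0.271, 0.397 and 0.298 FPKM in Perinatal BM and 1.29, 2.04 and 1.53 FPKM in 1w BM, with 1w BM 2 the lowest of its group for each. The macrophage marker sum, 22.4 to 25.9 FPKM in Perinatal BM and 20.5 to 31.7 FPKM in 1w BM, was mostly Csf1r, at 13.8 to 22.8 FPKM over the 6 libraries. The part of these markers in the difference for Slc40a1 was not tested. Lgals3, galectin 3, fell by 1.81, from 7.38, 6.75 and 17 FPKM to 1.55, 1.64 and 3.03 FPKM. Siglech, a marker of plasmacytoid dendritic cells, fell by 1.22 from levels of at most 2.15 FPKM.

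Heat shock genes were called higher for 5 of 25 (20%), against 9.78% of all 11447 genes. That count was 0 in the fit of the 6 libraries alone, 9 without Perinatal BM 3, 1 without Perinatal BM 1, 3 without 1w BM 2 and 2 without any of the other 3 libraries.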
